A study of Homo sapiens with 6 samples.

Results

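ZNF281, SND1, RALY, RAB30 and LY86 were 5 genes of the myeloma cell line MM.1S with chromatin sites that were called open in every library treated with CB-6644 and in no library treated with DMSO. The genes were chosen on these same peak calls, as genes with 2 such CB-6644-only regions. Of the 16 genes that held 2 of them when each region was given to its nearest protein-coding transcription start site (TSS), these 5 had the highest mean peak strength. The mean within-library percentile of the chosen regions fell from 42.8 for ZNF281 to 28.1 for SND1, and THRB, the first gene left out, had 27.2. The CB-6644-only calls are therefore a description with no test, and so are the DMSO-only calls and the strengths, which come from the same contrast. Described are the promoters of the 5 genes, among 20033 protein-coding genes, and 131 of 89196 merged regions, which were all regions in the 5 gene bodies and 130 kb on each side.

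Omni-ATAC libraries were compared between MM.1S cells given 120 nM CB-6644 for 72 h and MM.1S cells given DMSO, the solvent control, with 3 libraries in each group. Per the study's methods, live cells were sorted before the libraries were made. The labels give a replicate number but not whether replicates were separate cultures, so the spread between them may be technical. All libraries came from 1 cell line, and the labels give no duration for DMSO.

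Omni-ATAC marks accessible DNA with a transposase that cuts where nucleosomes or other proteins leave room. CB-6644 inhibits RUVBL1 and RUVBL2, ATPases that belong to the INO80, SRCAP and TIP60 remodeling complexes that move or exchange nucleosomes. Open sites away from promoters are often enhancers, which transcription factors occupy and which can act over long distances on genes other than the nearest. ZNF281 is a zinc finger transcription factor, SND1 is a nuclease and transcriptional coactivator, and RALY is an RNA-binding protein of the hnRNP family. RAB30 is a GTPase of the Golgi apparatus, and LY86, also called MD-1, is a secreted partner of the receptor CD180.

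The sequences of 6 CB-6644-only regions are shown because they carry the calls that chose the genes: the strongest region of ZNF281, SND1, RAB30 and LY86, and for ZNF281 and RALY a weaker region that held a motif. Each is 201 bases of hg38, plus strand, centred on the strongest summit, and capitals mark motif matches. The downstream ZNF281 sequence does not reach the CB-6644 replicate 2 peak of its region. The motifs were AP-1 (TGANTCA), MAF (TGCTGAC) and an E-box (CAGGTG), on either strand.
ZNF281 upstream region (chr1:200512377-200512577): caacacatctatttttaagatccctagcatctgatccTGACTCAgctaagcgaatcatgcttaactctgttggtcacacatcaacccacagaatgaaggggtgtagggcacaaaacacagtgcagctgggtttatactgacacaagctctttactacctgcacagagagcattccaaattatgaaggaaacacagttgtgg
ZNF281 downstream region (chr1:200282641-200282841): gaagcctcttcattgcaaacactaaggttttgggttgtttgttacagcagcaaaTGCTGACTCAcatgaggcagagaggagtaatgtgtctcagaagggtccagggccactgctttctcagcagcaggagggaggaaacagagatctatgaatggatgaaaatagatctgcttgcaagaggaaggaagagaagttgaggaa
SND1 intron (chr7:127949704-127949904): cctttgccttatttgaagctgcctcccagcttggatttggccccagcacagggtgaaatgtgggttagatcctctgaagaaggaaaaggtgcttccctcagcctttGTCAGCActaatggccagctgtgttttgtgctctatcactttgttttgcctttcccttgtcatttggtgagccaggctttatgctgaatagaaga
RALY intron (chr20:34025002-34025202): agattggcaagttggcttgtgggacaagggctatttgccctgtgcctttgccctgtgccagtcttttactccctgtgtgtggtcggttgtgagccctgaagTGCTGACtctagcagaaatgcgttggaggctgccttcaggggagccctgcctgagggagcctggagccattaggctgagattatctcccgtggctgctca
RAB30 intron (chr11:83025291-83025491): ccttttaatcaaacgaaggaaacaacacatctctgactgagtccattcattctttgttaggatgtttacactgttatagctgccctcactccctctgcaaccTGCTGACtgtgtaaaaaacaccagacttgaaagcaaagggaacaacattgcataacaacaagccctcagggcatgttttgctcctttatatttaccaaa
LY86 downstream region (chr6:6702758-6702958): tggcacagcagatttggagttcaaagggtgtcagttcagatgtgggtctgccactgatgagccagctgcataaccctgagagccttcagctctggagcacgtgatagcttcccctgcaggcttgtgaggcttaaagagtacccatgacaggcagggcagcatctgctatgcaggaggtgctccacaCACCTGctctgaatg

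The lists held 59393, 71781 and 58563 peaks in CB-6644 replicates 1, 2 and 3, and 79020, 71098 and 65569 peaks in DMSO replicates 1, 2 and 3. They give no read totals. Background tags per kb, recovered from the peak values, stood in for depth and ran from 3.20 to 7.05 with CB-6644 and from 6.40 to 9.08 with DMSO. A site without a peak was not detected rather than shown closed. CB-6644 replicate 2 and DMSO replicate 1 stood apart, with shortest peaks of 65 and 91 bp against at least 131 bp in the other 4 libraries, and are called short-fragment libraries here. Promoters of all 7 plasma cell markers, including IRF4, XBP1 and SDC1, had a peak in every library. Promoters were ranked from 0 to 100 among the regions that all 6 libraries shared, and SLAMF7 had no such promoter region. Of the other plasma cell markers, 2 were lower in every CB-6644 library than in every DMSO library. These were IRF4, at a mean of 47.4 against 71.8, and CD38, at 67.5 against 80.8, and their part in the results was not tested. Of the 10 ranked markers of any cell type, these 2 were lower and 1 was higher, the myeloid marker SPI1, at 41.0 against 27.8. Over all shared regions, 13.4% were lower and 13.3% higher in this way. MS4A1, CD3E, CD3D, LYZ and GATA1, markers of other blood cells, had none, whereas PAX5, CD14, SPI1 and COL1A1 had a peak in all 6 libraries and COL1A2 in 4.

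Around the 5 genes, 63 of the 131 regions were called in all 6 libraries, 11 were CB-6644-only and 6 were DMSO-only. The CB-6644-only share was 8.40%, against a background of 0.586% of all 89196 regions, and this excess follows from how the genes were chosen. The DMSO-only share was 4.58%, against a background of 4.5%. Over all protein-coding genes, 0.539% had 2 or more CB-6644-only regions in the same window, 108 of 20033. ZNF281, RALY, RAB30 and LY86 had 2 each and SND1 had 3. The larger window took in a region whose nearest TSS was that of LRRC4, a neighbour of SND1. Another 15 regions were called in 1 library and 36 in other combinations. Of these, 5 had peaks in 2 CB-6644 libraries and no DMSO library and 7 had the converse, while 4 had peaks in all 3 CB-6644 libraries and in 1 or 2 DMSO libraries and 13 had the converse.

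**Figure D1:**
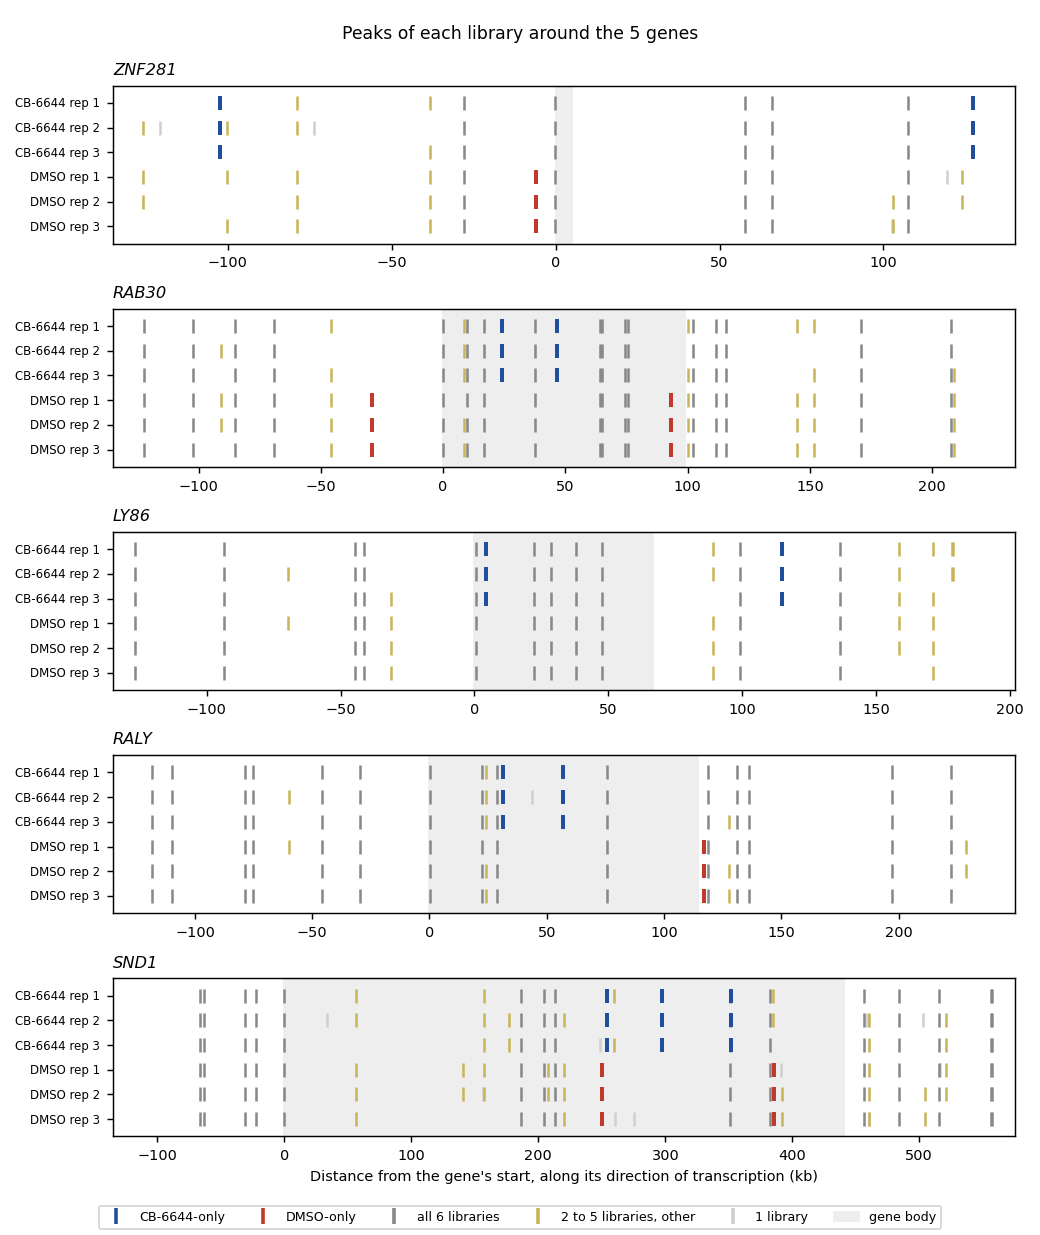
Peaks of each library (rows) by distance in kb from the start of each gene along its direction of transcription, with the gene body shaded and each tick coloured by the class of its merged region. The 11 CB-6644-only regions (blue) lie in introns of SND1, RALY, RAB30 and LY86 or outside the gene bodies of ZNF281 and LY86, and the 6 DMSO-only regions (red) lie around 4 of the genes and not around LY86.

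Of the 11 CB-6644-only regions, 8 lay in introns of the named genes, 2 in introns of long non-coding RNA genes and 1 between genes. None was in a promoter. They were short, from 165 to 492 bp with a median of 220 bp, against a median of 532 bp for regions called in all 6 libraries. Their median percentile was 28.6, against 65.0 for the 63 shared regions of the same windows and 23.7 for all 523 CB-6644-only regions. The genes were chosen by the strength of these regions, so a level above that of all 523 follows from the choice. DMSO-only regions were alike, with a median of 270 bp over the whole series. Their median percentile was 29.0 around the 5 genes and 24.2 over the whole series. A percentile is the position of a region's strongest peak by −log10 p within its own list, where 100 is the strongest. The peak caller's fold, the pile-up over local background with 1 added to each, is not scaled between libraries, so strengths were compared as percentiles or ranks.

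ZNF281 (ENSG00000162702.8, chr1:200404940-200410056, minus strand) had the strongest and the weakest-supported of these regions. The upstream region, at chr1:200512321-200512578 and between genes 102 kb from the nearest ZNF281 TSS, reached percentiles of 70.1, 70.8 and 62.0 in CB-6644 replicates 1, 2 and 3. Its summits held 74, 35 and 69 tags at 18.7-fold, 21.5-fold and 17.8-fold enrichment. All 3 libraries were high here, and by its lowest percentile the region ranked 1 of the 523 CB-6644-only regions. The weakest peak that any DMSO list reports had 6 tags in replicate 1 and 8 tags in replicates 2 and 3. These are minima over whole lists. More tags are needed where local background is higher, so the DMSO threshold at this site is not known. The nearest DMSO peak lay 1921 bp away, in a neighbouring region called in DMSO replicates 1 and 3 and CB-6644 replicate 2. A single AP-1 match stood in the sequence printed above.

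The downstream region of ZNF281, at chr1:200282441-200282932 in an intron of the long non-coding RNA gene LINC00862, lay 127 kb from the nearest ZNF281 TSS. It reached percentiles of 28.6, 4.22 and 21.0 in CB-6644 replicates 1, 2 and 3, with 27, 7 and 26 tags. Replicates 1 and 3 were alike and replicate 2, a short-fragment library, was far lower, with a peak of 65 bp at the edge of the region. Its sequence holds an AP-1 and a MAF match that overlap in 1 element. Both lie within the peaks of replicates 1 and 3 and outside that of replicate 2, at chr1:200282868-200282932. The single DMSO-only region of ZNF281, at chr1:200415776-200416057, lay 5.72 kb upstream of the gene in an exon of a long non-coding RNA. It reached percentiles of 42.8, 36.8 and 53.7 in DMSO replicates 1, 2 and 3, between the levels of the downstream and the upstream CB-6644-only region.

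SND1 (ENSG00000197157.11, chr7:127652194-128092609, plus strand) held 3 CB-6644-only regions, all in its introns, in the largest window, 700.4 kb. The region at chr7:127905909-127906073 reached percentiles of 14.0, 40.2 and 21.6 in CB-6644 replicates 1, 2 and 3. The region at chr7:127949709-127949928 reached 28.1, 44.4 and 20.3. Replicate 2 was highest in both, although its pile-ups of 16 and 14 tags were the lowest of the 3 libraries, since percentiles are taken within a list. The region at chr7:128003815-128004080 was weaker, with percentiles of 25.1, 20.4 and 10.9. It lay 152 bp from a region called in all 6 libraries, and the nearest peaks of the 3 DMSO lists were 167 to 281 bp away. All 6 libraries therefore had peaks close to this site. Its nearest protein-coding TSS was that of LRRC4, whose promoter had no peak in any library.

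Of the 2 DMSO-only regions of SND1, that at chr7:127901984-127902295 reached percentiles of 26.2, 33.3 and 24.7 in DMSO replicates 1, 2 and 3. It lay 3613 bp from the first CB-6644-only region, the closest pair of opposite calls around the 5 genes. CB-6644 replicate 3 had a peak 902 bp away. The other DMSO-only region, at chr7:128037538-128038162, reached 51.6, 33.7 and 41.5 and was the strongest group-only region of SND1 by mean percentile, at 42.2. The nearest peaks of CB-6644 replicates 1, 2 and 3 lay 726, 766 and 2397 bp from it. SND1 also had 10 of the 15 regions called in 1 library.

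RALY (ENSG00000125970.12, chr20:33993646-34108308, plus strand) had its CB-6644-only regions in introns. The region at chr20:34024984-34025184 reached percentiles of 23.8, 45.2 and 16.9 in CB-6644 replicates 1, 2 and 3, with 36, 22 and 36 tags. Replicate 2 was again highest by percentile and lowest by tags. This region holds a MAF match and lay 2206 bp from a region called in all 6 libraries. The region at chr20:34050387-34050599 reached 33.0, 34.8 and 23.4, with 24, 12 and 23 tags, and the nearest DMSO peak was 18539 bp away. The single DMSO-only region of the window, at chr20:34110744-34110968, lay in an intron of the neighbouring translation factor gene EIF2S2 and reached 22.997, 16.6 and 23.2 in DMSO replicates 1, 2 and 3. The nearest peaks of CB-6644 replicates 1, 2 and 3 lay 829, 853 and 845 bp away, in the EIF2S2 promoter region.

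RAB30 (ENSG00000137502.10, chr11:82973133-83071923, minus strand) had CB-6644-only and DMSO-only regions in equal number. The intronic region at chr11:83025277-83025663 reached percentiles of 59.3, 52.6 and 51.8 in CB-6644 replicates 1, 2 and 3, with 49, 18 and 43 tags. The 3 libraries lay within a narrow range, second in strength only to the upstream region of ZNF281, and the nearest DMSO peak was 8318 bp away. The second intronic region, at chr11:83047727-83047898, was weaker, at 24.5, 22.1 and 18.3 with 20, 9 and 20 tags, and holds an AP-1 match. This match lies outside the peak of replicate 2.

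The DMSO-only region inside RAB30, at chr11:82978522-82978720 over an exon and UTR, reached percentiles of 37.4, 22.997 and 29.2 in DMSO replicates 1, 2 and 3. The other, at chr11:83100991-83101229 in an intron of the divergent transcript RAB30-DT, reached 6.51, 28.2 and 37.1. DMSO replicate 1, a short-fragment library, was the lowest of the 3 there and the highest at the exon.

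LY86 (ENSG00000112799.9, chr6:6588108-6654983, plus strand) had no DMSO-only region in its window. The intronic region at chr6:6592163-6592342 was the CB-6644-only region closest to the start of its gene, 3.44 kb from a TSS, and reached percentiles of 21.1, 13.5 and 27.5 in CB-6644 replicates 1, 2 and 3. Its folds of 6.09, 6.58 and 6.60 were among the lowest of the 11 regions. The downstream region, at chr6:6702776-6703043 in an intron of a long non-coding RNA gene 114 kb from the nearest LY86 TSS, reached 42.7, 65.3 and 35.6, with 32, 23 and 30 tags. The nearest DMSO peak was 15260 bp away, and the sequence holds an E-box.

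**Figure D2:**
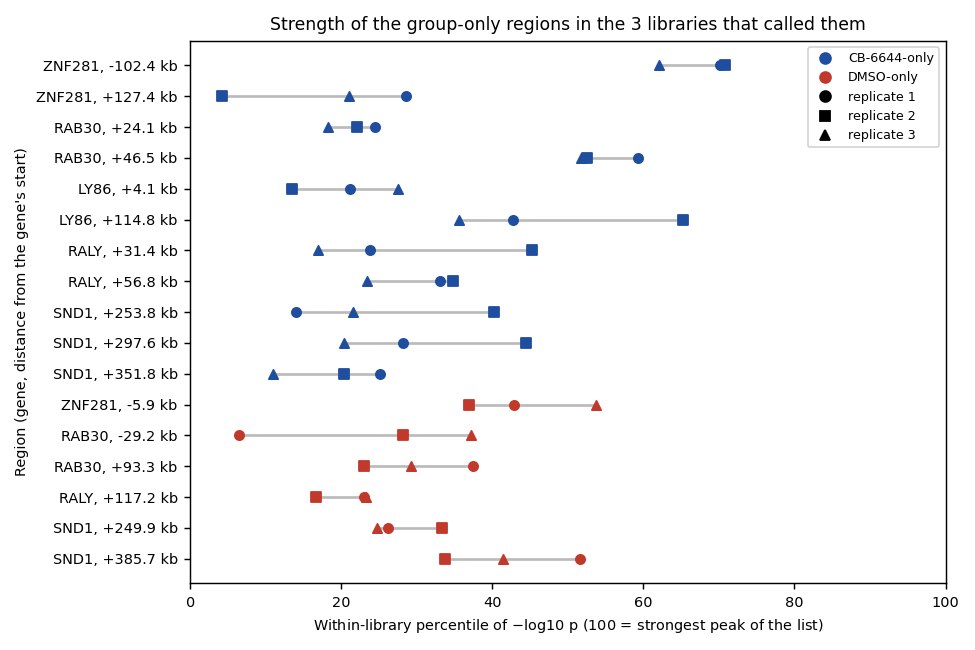
Within-library percentile of −log10 p (x axis, 100 is the strongest peak of a list) for the 11 CB-6644-only and 6 DMSO-only regions, labelled by gene and distance from its start, with 1 symbol for each of the 3 libraries and a line from lowest to highest. The upstream ZNF281 region and the RAB30 region 46.5 kb into the gene are the only CB-6644-only regions with all 3 libraries above 50.

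The promoters of all 5 genes had a peak within 1000 bp of a TSS in all 6 libraries, 30 of 30 calls, as did 63.5% of all protein-coding genes. The SND1 promoter was among the strongest peaks of every list, at percentiles of 99.9, 99.5 and 99.9 in CB-6644 replicates 1, 2 and 3 and 99.8, 99.96 and 99.96 in DMSO replicates 1, 2 and 3. The main RAB30 promoter reached 97.7, 98.7 and 98.0 with CB-6644 and 98.8, 99.2 and 98.9 with DMSO. The CB-6644 libraries all stood below the DMSO libraries at RAB30, by a mean of 0.85 percentile points, and the groups overlapped at SND1. By rank among shared regions, RAB30 was the only 1 of the 5 promoters lower in every CB-6644 library, and none was higher. Over all shared regions, 13.4% were lower and 13.3% higher in this way.

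The ZNF281 promoter reached 95.9, 98.5 and 96.2 with CB-6644 and 97.9, 97.2 and 95.6 with DMSO. The RALY promoter reached 96.2, 95.6 and 95.4 with CB-6644 and 96.6, 96.3 and 95.04 with DMSO. The LY86 promoter was weaker, at 71.5, 57.4 and 62.5 with CB-6644 and 66.6, 64.0 and 68.3 with DMSO. In all 3 genes the groups overlapped.

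Among 12 related genes looked up whatever their values, 11 had a promoter peak in all 6 libraries, beside the 63.5% of all protein-coding genes. CD180, the partner of LY86, had none in any library. LY96, the homologue of LY86 that serves the endotoxin receptor TLR4, reached percentiles of 69.9, 74.0 and 69.1 with CB-6644 and 62.1, 61.3 and 64.8 with DMSO. TLR4 itself ran from 88.4 to 92.0 over the 6 libraries. By rank among shared regions, which list length does not affect, every CB-6644 library was above every DMSO library at LY96 and TLR4, 2 of the 11 promoters, and below at none. The mean ranks were 58.1 against 39.6 at LY96 and 85.8 against 81.4 at TLR4. Of all shared regions, 13.3% had every CB-6644 library above and 13.4% below. ZNF148, a close relative of ZNF281, and HNRNPC, a relative of RALY, had promoter peaks in every library, as did the Golgi GTPases RAB1A, RAB1B, RAB6A and RAB33B. STAT5A and STAT5B share 1 promoter region and STAT6 had its own. The windows of these 12 genes held 1 CB-6644-only region, at HNRNPC, and 7 DMSO-only regions summed over 6 genes, with neighbouring windows overlapping at STAT5A and STAT5B. Each window held from 8 regions, at ZNF148 and RAB33B, to 34 regions, at STAT6. Over all 89196 merged regions, 0.586% were CB-6644-only and 4.5% DMSO-only, and no difference from these shares was tested.

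**Figure D3:**
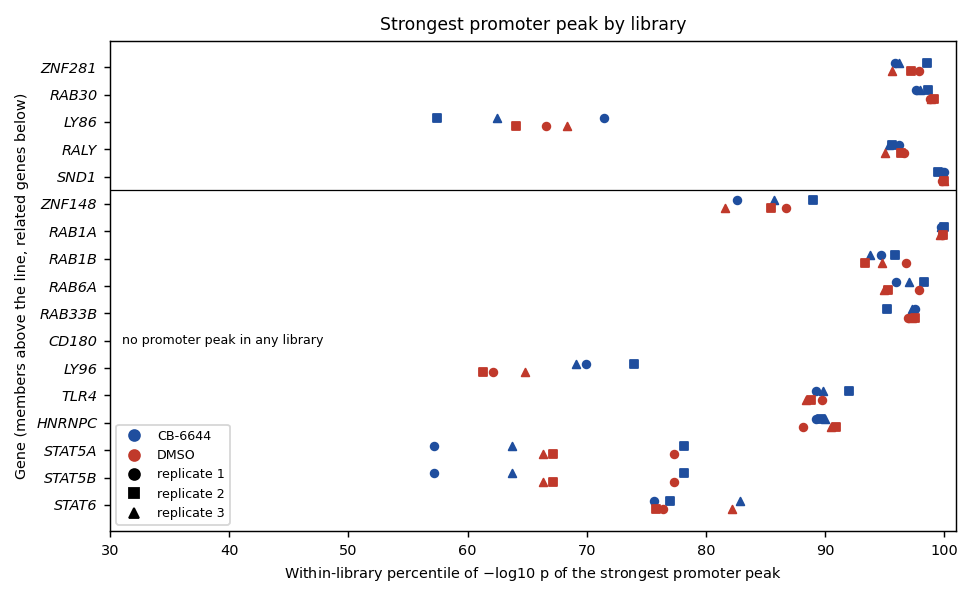
Within-library percentile of the strongest promoter peak (x axis) for the 5 genes above the line and 12 related genes below it, with CB-6644 libraries in blue, DMSO libraries in red and 1 symbol per replicate. The promoter peaks of SND1 sit at or above 99.5 in every library, those of LY86 between 57.4 and 71.5, and CD180 has none.

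Regions called in all 6 libraries were compared by rank, from 0 to 100 among the 42089 regions that all libraries shared, so that the lengths of the lists did not enter. Around the 5 genes, 15 of 63 such regions had every CB-6644 library above every DMSO library, beside the 13.3% over all shared regions, and 8 of 63 had every CB-6644 library below, beside the 13.4%. The median change in rank, CB-6644 minus DMSO, was 0.33 points over the 63 regions and 0.16 over all shared regions. By gene, 2 of 5 shared regions were higher and none lower around ZNF281, 3 of 15 higher and 1 lower around SND1, 5 of 15 higher and 1 lower around RALY, and 3 of 11 higher and 1 lower around LY86. RAB30 had the opposite balance, with 2 of 17 higher and 5 lower. These regions were not used to choose the genes, but they come from the same contrast and libraries, and their counts were not tested.

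The region that rose most in rank lay at chr1:200343873-200344285, in an intron of LINC00862 on the downstream side of ZNF281. It ranked 62.4, 46.5 and 61.3 in CB-6644 replicates 1, 2 and 3 and 13.5, 15.4 and 18.7 in DMSO replicates 1, 2 and 3, or 56.7 ± 8.90 against 15.9 ± 2.61 (SD, n = 3 libraries each). The groups were far apart, and 0.375% of all shared regions moved up by as much or more. A region in an intron of LY86, at chr6:6616610-6617028, ranked 70.5, 60.9 and 72.5 with CB-6644 and 41.8, 25.4 and 29.0 with DMSO. Its mean of 68.0 ± 6.21 with CB-6644 exceeded 32.1 ± 8.61 with DMSO by 35.91 points, a change matched by 0.699% of shared regions.

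Within RAB30, the region at chr11:83061866-83062315 moved the other way. It ranked 26.7, 9.64 and 28.9 with CB-6644 and 44.95, 69.9 and 66.2 with DMSO, or 21.8 ± 10.6 against 60.3 ± 13.5 (SD, n = 3 libraries each), and 0.739% of shared regions moved down by as much or more. A further RAB30 region, at chr11:82995980-82996420 near an internal TSS, ranked 12.3, 20.3 and 10.4 with CB-6644 and 27.2, 34.2 and 46.7 with DMSO. At the other RAB30 promoter regions around internal TSSs the groups overlapped. Mean ranks at chr11:82997098-82997809 were 73.1 with CB-6644 and 71.1 with DMSO. At chr11:83033982-83034896 they were 16.8 with CB-6644 and 24.5 with DMSO. RAB30 thus had regions called in CB-6644 libraries alone beside shared regions that ranked lower with CB-6644.

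In SND1, the region with the largest change, at chr7:127838061-127838321, ranked 20.2, 30.5 and 19.8 with CB-6644 and 1.06, 0.126 and 0.435 with DMSO, so that it was among the weakest shared regions of each DMSO list. Around RALY, the region with the largest change lay between genes at chr20:34124516-34124776 and ranked 59.0, 61.9 and 53.6 with CB-6644 and 42.3, 37.9 and 40.9 with DMSO. In an intron of RALY itself, the region at chr20:34069139-34069570 ranked 77.2, 83.5 and 71.4 with CB-6644 and 63.7, 66.9 and 52.5 with DMSO. None of these groups overlapped.

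**Figure D4:**
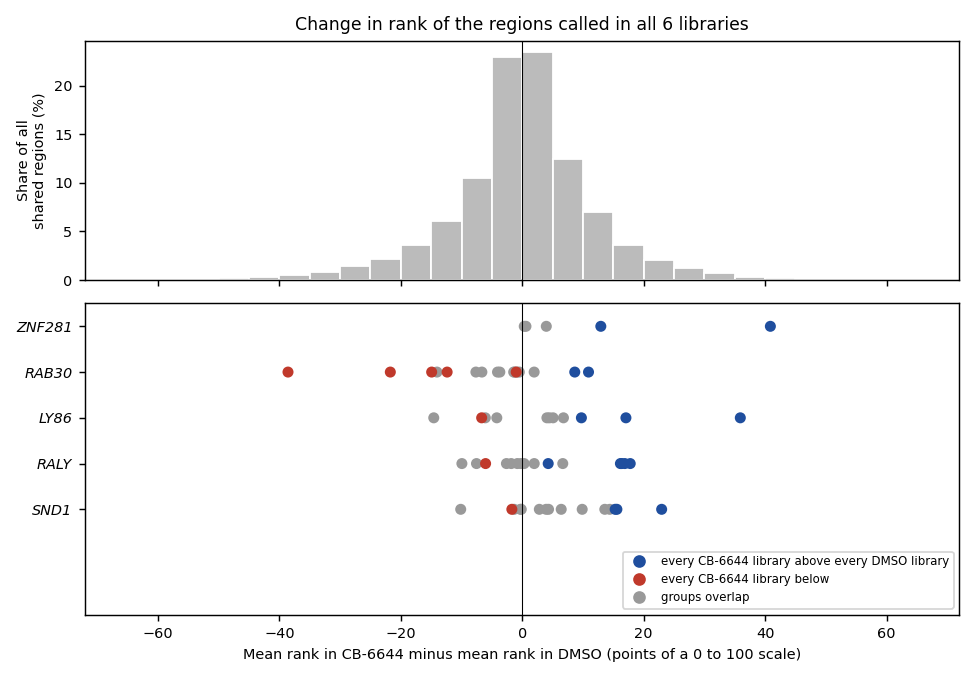
Mean rank with CB-6644 minus mean rank with DMSO, in points of a 0 to 100 scale, for all 42089 regions called in all 6 libraries (bars, percent of regions per bin of 5 points) and for the 63 of them around the 5 genes (points, 1 row per gene). Points are blue where every CB-6644 library ranked above every DMSO library (15 regions) and red where every one ranked below (8 regions), and RAB30 holds 5 of the red points.

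The 3 strongest shared regions of each window, by the lowest of their 6 percentiles, were mostly promoters. Around RAB30 they were the promoters of RAB30, PCF11 and the pair PRCP and DDIAS, and around SND1 those of SND1, GCC1 and ARF5. Around RALY they were the promoters of RALY and EIF2S2 and a region between genes at chr20:33874956-33875705, which ranked 92.3, 95.1 and 92.5 with CB-6644 and 90.7, 86.9 and 89.5 with DMSO. Around LY86 none was a promoter: the strongest lay in introns of LY86 or of its antisense transcript LY86-AS1, such as chr6:6546261-6547404 at percentiles of 81.5, 82.9 and 78.1 with CB-6644 and 79.4, 81.1 and 80.8 with DMSO. Around ZNF281 the promoter was followed by a pair of regions in introns of LINC00862. The groups overlapped at most of these sites, and among them every CB-6644 library ranked higher at the intergenic RALY region and lower at the promoters of RAB30 and GCC1. By mean percentile the third ZNF281 region would instead be the one at chr1:200343873-200344285, which rose most in rank.

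The rule did not use DNA sequence. Within 100 bp of the summit, 4 of the 11 CB-6644-only regions held an AP-1 match and 4 a MAF match, with 1 region counted in both through overlapping matches, and 1 held the E-box. Of all 89196 regions, 10.4% held AP-1, 5.31% MAF and 27.7% the E-box, and of all 523 CB-6644-only regions, 15.1%, 17.8% and 41.5% did. In 3 of the 11 regions no searched motif was found, and none held an NF-kB, IRF (GAAANNGAA), ATF4-CEBP (TGATGNAA), CTCF or ETS (CCGGAAGT) match. Of the 6 DMSO-only regions, 1 held AP-1, 1 the E-box, 1 IRF and none MAF, and 3 held no searched motif. The share of all regions was 6.51% for NF-kB, 13.7% for IRF, 3.98% for ATF4-CEBP, 4.74% for CTCF and 1.28% for ETS. These are matches of letters in a window and do not show a bound factor.

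The 2 classes also differed in base composition. GC content ran from 37.3% to 56.7% with a median of 47.8% in the 11 CB-6644-only regions, and from 33.3% to 41.8% with a median of 38.6% in the 6 DMSO-only regions. The ranges overlapped. Over the whole series the medians were 48.3% for CB-6644-only, 41.8% for DMSO-only and 49.2% for all regions, so the regions around the 5 genes lay close to their classes.

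The calls depended on how peaks were selected. With only the 20000 top peaks of each list, none of the 11 CB-6644-only regions and none of the 6 DMSO-only regions kept its call, and 2 other regions became CB-6644-only. Over the whole series, this setting gave 561 CB-6644-only regions, against 523 as reported, and 733 DMSO-only regions, against 4016. With equal numbers of top peaks, 58563 in each list, 9 of the 11 kept the call. Over 6 settings of the peak calls, the upstream ZNF281 region and the downstream LY86 region kept it in 5, and the downstream ZNF281 region in 1. That 1 was −log10 q of at least 5, which could not remove a call, since the lowest −log10 q in the 11 regions was 6.02. Where the 4 long-fragment libraries were thinned to equal background and only peaks with −log10 p of at least 20 were kept, 4 of the 11 remained. Over the whole series, this setting changed the long-fragment counts from 1566 to 2343 CB-6644-only regions and from 7251 to 3578 DMSO-only regions.

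**Figure D5:**
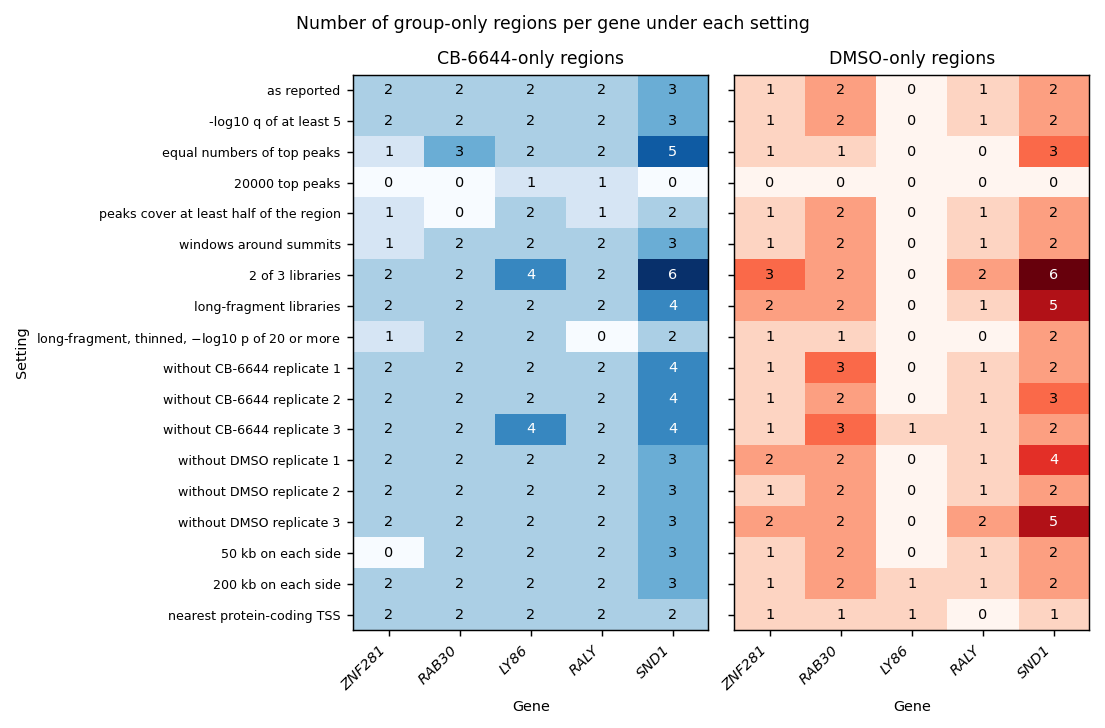
Number of CB-6644-only (left) and DMSO-only (right) regions per gene (columns) under each setting (rows), as printed in the cells. The CB-6644-only counts of 2, 2, 2, 2 and 3 for ZNF281, RAB30, LY86, RALY and SND1 fall to 0, 0, 1, 1 and 0 with the 20000 top peaks.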

How the data were processed

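The authors made 1 Omni-ATAC peak list per library, with replicates not pooled. The submitters' processing notes name hg38, Bowtie2 2.4.2 and MACS3 3.0. In the deposited lists the fold is the ratio of summit pile-up to local background by the authors' caller, and the −log10 p and −log10 q are its significance at the summit. The score column and summit offset in the deposited lists are also the authors', and none of these values is scaled between libraries. The authors' count-based edgeR test needs reads and was not analysed here.

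The labels gave groups and replicate numbers. Peaks overlapping by at least 1 bp were merged. CB-6644-only regions had a peak in each of the 3 CB-6644 libraries and in no DMSO library, and DMSO-only regions the converse. Windows were gene bodies with 130 kb on each side, and promoters reached 1000 bp to either side of any protein-coding TSS (GENCODE release 44, hg38). Pile-up and background were solved from fold and −log10 p under a Poisson model that at least 99.1% of the peaks of each list matched. For each list, the 1% quantile of background over its peaks, divided by its shortest peak length, gave tags per kb. Motifs were counted in 201 bp around the strongest summit. Python 3.11.15, numpy 2.4.6, scipy 1.17.1, pandas 2.3.3, matplotlib 3.10.9 and pysam 0.24.0 were used, and the steps were checked on simulated data.

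The genes and lists were chosen with earlier results of these data known, so no test was made. Named were the 5 genes, all their group-only and promoter regions, the 3 strongest shared regions of each window, neighbours, the first gene outside the choice, 12 related genes and markers of other cell types, of which 1 is not reported here. Other shared regions were named for the size of their change after their values were seen. For the counts of group-only regions, 17 alternatives were tried, covering peak strength, list length, overlap, summits, libraries, depth and the window.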

Additional observations from a re-analysis of the deposited data

How the results depend on the processing

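The 11 CB-6644-only regions around the 5 genes became 2 with the 20000 top peaks of each list, 6 where a library had to cover at least 50% of a region, and 7 when long-fragment libraries alone were used after thinning. Leaving out 1 library gave 11 to 14, and the other settings stayed within 1.5 times of 11. The 6 DMSO-only regions became 0 with the 20000 top peaks, 13 where 2 of 3 libraries sufficed and 10 in the long-fragment libraries. Leaving out 1 library gave 6 to 11, with 11 without DMSO replicate 3. A group-only region keeps its call by construction when a library is left out, where 2 of 3 libraries suffice and in the long-fragment libraries. Those around the 5 genes also could not lose it at −log10 q of at least 5, which all their peaks exceeded. The backgrounds moved too. The 523 CB-6644-only regions of the whole series became 1014 without DMSO replicate 1 and 968 without CB-6644 replicate 2. With equal numbers of top peaks they became 1063, and the 4016 DMSO-only regions became 1857. CB-6644-only and DMSO-only regions were 561 and 733 with the 20000 top peaks and 328 and 3780 with 50% coverage. They were 1589 and 8070 where 2 of 3 libraries sufficed and 1566 and 7251 in the long-fragment libraries. After thinning, the long-fragment counts were 2343 and 3578. With 50 kb on each side ZNF281 had 0 CB-6644-only regions. The 30 promoter calls were 30 with 500 bp, 2500 bp or −log10 q of at least 5, and 25 with the 20000 top peaks. No paired analysis was possible because the results are counts of regions called over all 6 libraries, with no model fitted. The lists hold no reads, so signal below the caller's thresholds is not seen. The weakest peaks of the lists had 4 to 8 tags, and more are needed where local background is higher. The part of the lower CB-6644 background in the calls was not tested.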

Other observations

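The windows also took in 11 other protein-coding genes. PRCP and DDIAS, which share a promoter region, PCF11, ANKRD42, EIF2S2, GCC1 and ARF5 had a promoter peak in all 6 libraries. At PCF11, a factor of transcript 3′ end formation, the promoter reached percentiles of 99.3, 96.4 and 99.2 in CB-6644 replicates 1, 2 and 3 and 98.6, 99.3 and 99.6 in DMSO replicates 1, 2 and 3, and the groups overlapped. ASIP, which encodes the agouti signalling protein, had a weaker promoter peak in CB-6644 replicates 1 and 3 and DMSO replicates 2 and 3, at 19.7, 31.8, 11.5 and 16.6, and none in the 2 short-fragment libraries. FSCN3, PAX4 and LRRC4 around SND1 had no promoter peak in any library.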
